A study of Homo sapiens with 12 samples.

Results

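The subject here is the resting transcriptome of K-562 cells, as the 3 untreated cultures of a drug series recorded it. These 3 libraries were taken by their labels from 12 in all, and no treated library entered any value. The study exposed K-562 to 5 µM of the compound Si-711 for 8, 24 or 48 h, with 3 cultures at each time beside the 3 untreated ones, which received 0 µM and stand at 0 h in the labels. K-562 is an established human line from chronic myelogenous leukemia, labelled as lymphoblasts, and all cultures grew in RPMI1640 medium with fetal bovine serum. Polyadenylated RNA was sequenced with strand information, and the labels call the 3 cultures independent biological replicates of the line. With 1 group there is nothing to test, so values are given per culture and spread is described beside the spread of all genes.

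K-562 cells carry the Philadelphia chromosome, which joins BCR on chromosome 22 to ABL1 on chromosome 9 and makes a constantly active tyrosine kinase. That kinase signals through STAT5, RAS and PI3K and keeps the cells dividing. The line stands near the branch of the erythroid and megakaryocytic lineages. It is known for embryonic and fetal hemoglobins, and for a very low level of adult beta globin. In red cell precursors GATA1, TAL1, LMO2, LDB1 and KLF1 act together on the genes of hemoglobin, heme and the red cell membrane. GATA factors bind DNA at GATA motifs and KLF1 at CACCC motifs.

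The libraries summed to 31387546 to 31718907 normalized counts, and the value of 1 read puts their depth at about 28100000 to 34700000 reads. A gene was called detected when it reached 10 normalized counts in each of the 3 libraries. Of 51112 genes, 13121 were detected, which is 25.7%, and 27774, or 54.3%, were listed at 0 in all 3. Of 18729 protein-coding genes, 11362 (60.7%) were detected and 3403 (18.2%) were listed at 0 in all 3. Protein-coding genes held 97.6% of the counts. The 1207 detected of 12637 long noncoding genes belonged to a class that held 0.950%, and 440 of 13329 pseudogenes were detected. The 100 most abundant genes of a library took 20.8%, 20.3% and 19.1% of replicates 1, 2 and 3.

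Some genes that every cell uses were listed at values far under their usual place, and this limits what a low value means here. POLR2A, the large subunit of RNA polymerase II, had 33.6, 35.6 and 34.5 normalized counts in replicates 1, 2 and 3. B2M, the light chain of class I HLA molecules, had 33.7, 25.3 and 26.2. RPS9, a protein of the small ribosomal subunit, had 358 in replicate 1, was listed at 0 in replicate 2 and had 3.49 in replicate 3, while the median ribosomal protein gene had 25331. Of the 31-base words of POLR2A transcripts, 1.22% also occur in another gene, and of those of B2M 1.55%, and the cause of the low values was not tested. A value of 0 is therefore given only as listed at 0, and absence of the transcript is not inferred from it.

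The levels of different genes are compared after division by the median length of each gene's annotated transcripts and scaling to a sum of 1000000 per library, called the length-scaled level. On that scale HBG2, a fetal gamma globin gene, stood first of all genes at 8592 ± 2798 (SD, n = 3), also when the mean or the longest transcript length was used. The 20 highest genes held 4 globin genes (HBG2, HBZ, HBG1 and HBA1), 5 ribosomal protein genes (RPLP0, RPL4, RPL13A, RPS18 and RPS2) and 4 genes of the mitochondrial genome (MT-CO3, MT-CO1, MT-CO2 and MT-RNR2). The other 7 were ENO1, a glycolytic enzyme, NPM1, a nucleolar protein, EEF2, a translation elongation factor, PABPC1, which binds poly(A) tails, TUBA1B, an alpha tubulin, and the chaperones HSPA8 and HSP90AA1. With the mean transcript length 18 of these 20 kept a place among the highest 20, and with the longest transcript 11 did. The SD covers spread between cultures and not the choice of length. With the longest transcript EEF2, for example, fell from 4720 to 2282. Where genes are called close or apart per length, this therefore holds for the median length only. By counts, globin genes took 1.57 ± 0.537% of a library, cytosolic ribosomal protein genes 7.99 ± 0.354% and the mitochondrial genome 3.56 ± 0.174% (SD, n = 3).

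**Figure D1:**
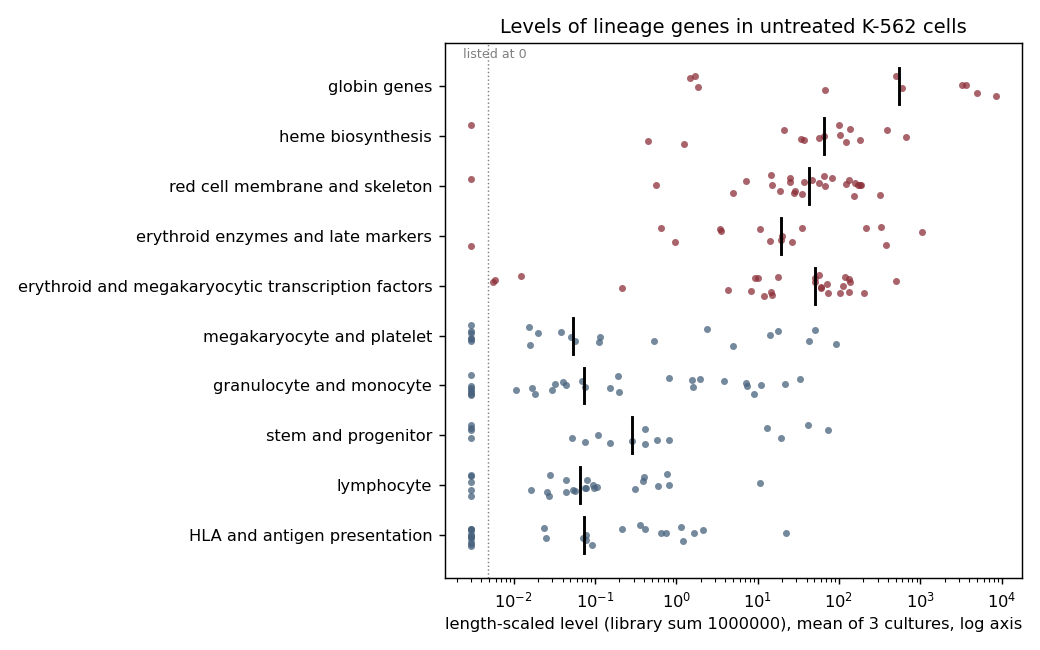
Length-scaled level (library sum 1000000, log axis) of each gene of 10 lists, as the mean of 3 untreated cultures. Points are genes, red for the erythroid lists, black bars are list medians, and genes listed at 0 in all 3 cultures stand left of the dotted line. The medians of the 5 erythroid lists lie between 19.4 and 553, and those of the other 5 lists between 0.054 and 0.288.

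Globin genes are arranged in an alpha-like cluster on chromosome 16 and a beta-like cluster on chromosome 11, and each cluster holds embryonic genes beside fetal or adult ones. All 10 globin genes listed were detected. HBG2 (chr11:5253190-5505605 on the minus strand of GRCh38) had 217379, 211939 and 113143 normalized counts in replicates 1, 2 and 3. HBG1, the other gamma globin gene, had 114244, 110376 and 64781. HBE1, the embryonic epsilon globin, had 22247, 22926 and 11477. Since 52.8% of the 31-base words of HBG2 also occur in HBG1, the split between the gamma genes is uncertain. For each of these 3 genes replicates 1 and 2 were close together and replicate 3 was the low one.

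The adult beta-like genes were near the bottom of the detected range. HBB, adult beta globin, had 50.6, 37.9 and 28.4 normalized counts, and HBD, the minor adult delta globin, had 23.8, 25.6 and 41.9. Summed gamma globin stood 6115, 7952 and 5824 times above beta globin per length in the 3 cultures, and 20.5, 19.4 and 21.3 times above epsilon globin. The gamma to epsilon ratio was thus nearly the same in replicate 3, although each gene alone was lower there.

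On chromosome 16, HBZ, the embryonic zeta globin (chr16:152687-154503 on the plus strand), had 153393, 163132 and 68308 normalized counts. HBA1 had 70719, 72681 and 38832, and HBA2 had 11069, 12102 and 4939. These 2 adult alpha genes share 82.4% of the 31-base words of HBA1, so reads can pass from one to the other and only their sum is firm. That sum was 81788, 84783 and 43771, again lowest in replicate 3. Zeta exceeded summed alpha 1.34, 1.38 and 1.12 times per length. Alpha-like over beta-like totals came to 0.679, 0.733 and 0.620 per length. HBQ1, theta globin, had 1186, 1337 and 1159, and HBM, mu globin, 42.1, 47.3 and 14.6. HBQ1 was the only one of the 7 globin genes with a mean of at least 100 in which replicate 3 lay within 1.5-fold of another culture.

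**Figure D2:**
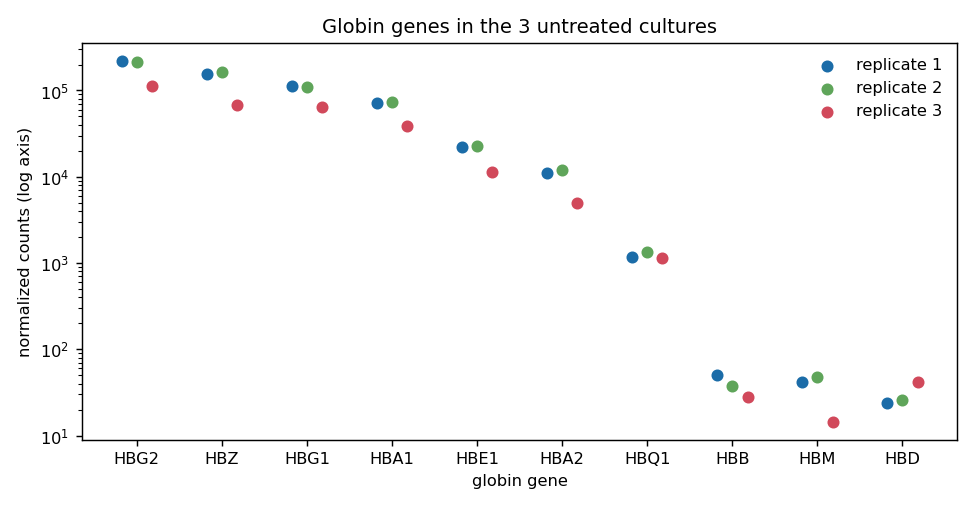
Normalized counts (log axis) of the 10 globin genes in each untreated culture, ordered by their mean. Replicate 3 lies under the other cultures in 9 genes, and HBD, at 41.9 in replicate 3, is the exception.

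Heme is built by a chain of enzymes that starts with ALAS and ends with FECH. Of 15 genes of heme synthesis and its transporters, 13 were detected, and TSPO2 was listed at 0 in all cultures. ALAS2, the erythroid form of the first enzyme, had 3849, 3376 and 1464 normalized counts, against 1551, 1499 and 1612 for ALAS1, its counterpart in other cells. Per length ALAS2 averaged 104 ± 45.5 and ALAS1 20.9 ± 0.71 (SD, n = 3). ALAS2 differed widely between cultures and ALAS1 hardly at all. UROD, the fifth enzyme of the chain, was the highest of the list per length at 675 ± 36, followed by the mitochondrial iron importer SLC25A37 at 390 ± 97.4. FECH, which inserts the iron, had 2688, 3012 and 1868 normalized counts and was lowest in replicate 3.

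Most genes of iron uptake, storage and export differed little between cultures. TFRC, the transferrin receptor, had 35631, 35812 and 34631 normalized counts, and the ferritin chains FTL and FTH1 averaged 1552 ± 113 and 1512 ± 71 per length. SLC40A1, the iron exporter, had 2716, 2564 and 2966. Of 11 iron genes 10 were detected, and their median coefficient of variation between cultures was 4.09%, against 7.45% over the 10446 genes with a mean of at least 100. That comparison is not matched for level: the median was 5.77% for genes with means of 1000 to 10000 and 3.81% from 10000 up. HAMP, the iron hormone of the liver, was the member that was not detected.

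Of 26 genes of the red cell membrane and skeleton 25 were detected. RHAG, the Rh-associated glycoprotein, led per length at 322 ± 16.5, before GYPC, glycophorin C, at 189 ± 16.9, the glucose transporter SLC2A1 at 180 ± 9.6 and ankyrin, ANK1, at 174 ± 14.5. GYPB, glycophorin B, had 2746, 2693 and 1642 normalized counts. SLC4A1, the band 3 anion exchanger that comes late in red cell maturation, had 502, 433 and 116, and EPB42, its partner protein 4.2, had 45.1, 55.4 and 23.1. These late membrane genes were the lowest detected members of the list per length together with CD36, and replicate 3 was under the other cultures in each.

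The list of red cell enzymes and late markers was uneven in level. BSG, the Ok blood group protein, led at 1050 ± 49.4 per length, and PRDX2, a peroxide-removing enzyme abundant in red cells, followed at 379 ± 22.8. AHSP, the chaperone of free alpha globin, had 196, 157 and 78.7 normalized counts. CA1, carbonic anhydrase of mature red cells, had 93.8, 106 and 18.7, and EPOR, the erythropoietin receptor, 1022, 987 and 730. All 3 were lowest in replicate 3. EPO, the hormone itself, was listed at 0 in each culture.

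Of 27 transcription factors and regulators of the lineage 23 were detected. GATA1, the main erythroid and megakaryocytic factor, had 5719, 5994 and 6263 normalized counts. KLF1 had 7687, 7737 and 6742, and TAL1 had 5849, 5841 and 4327. Per length TAL1 at 135 ± 22.4, KLF1 at 134 ± 10.4, GATA1 at 133 ± 5.96, LMO2 at 117 ± 9.55 and NFE2 at 111 ± 6.56 lay within or close to each other's spread. GATA2, which precedes GATA1 in progenitors, had 3769, 3723 and 5145, and was highest in replicate 3, as was MYB with 3893, 3902 and 5267. Fetal-stage regulators were also present: the RNA-binding proteins IGF2BP1 and LIN28B had 13066, 12826 and 13859, and 5457, 5143 and 5728. BCL11A, the repressor of gamma globin in adult cells, was listed at 0, 1.7 and 0, ERG at 1.48, 0.483 and 0, and FLI1 at 0, 1.02 and 0.921.

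Promoters of erythroid genes are shown because these genes were lower together in replicate 3 or encode the factors that act on them. The RefSeq set used had no promoter of HBZ, HBA1, HBA2, HBG1, HBG2, HBE1, HBB or SLC4A1, so none of these could be shown. HBM had a mean under 100 and so falls outside the rule for a low culture given below. HBD, which was highest in replicate 3, has a promoter with GATAA that is not printed. The stretches are RefSeq sequence of the 150 bases before a transcript start on GRCh38.p14, 5′ to 3′ along the gene's strand. Capitals mark GATAA and CACCC on either strand, that is also TTATC and GGGTG. They are ALAS2 (chrX:55030978-55031127, minus strand), HBM (chr16:165828-165977, plus strand), KLF1 (chr19:12887202-12887351, minus strand) and GATA1 (chrX:48786440-48786589, plus strand).
ALAS2: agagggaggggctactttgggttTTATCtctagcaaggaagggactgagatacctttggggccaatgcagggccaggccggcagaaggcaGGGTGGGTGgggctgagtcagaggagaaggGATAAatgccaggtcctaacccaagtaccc
HBM: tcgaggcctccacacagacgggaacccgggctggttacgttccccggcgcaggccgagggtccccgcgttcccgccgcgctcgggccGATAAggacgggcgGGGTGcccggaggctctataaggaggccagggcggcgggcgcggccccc
KLF1: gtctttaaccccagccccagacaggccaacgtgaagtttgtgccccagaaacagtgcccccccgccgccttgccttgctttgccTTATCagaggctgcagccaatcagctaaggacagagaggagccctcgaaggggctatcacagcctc
GATA1: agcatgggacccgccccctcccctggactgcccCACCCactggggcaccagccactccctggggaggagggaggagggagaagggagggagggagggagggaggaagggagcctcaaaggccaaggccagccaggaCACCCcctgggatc

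ALAS2 and HBM hold both motifs in this window, KLF1 holds the GATAA motif and GATA1 the CACCC motif. In the 250 bases before the start, GATAA occurred in 20.4% of all 35116 RefSeq promoters, CACCC in 54.7% and both in 8.75%. Among 63 promoters of the globin, heme, membrane and enzyme lists, which matched 45 of 66 genes, the shares were 38.1%, 61.9% and 23.8%. In the 13532 promoters of detected protein-coding genes GATAA occurred in 13.6%, and in the 59 promoters of the granulocyte, monocyte and lymphocyte lists also in 13.6%. CACCC occurred in 58.5% of the former and in 69.5% of the latter, so its share was not highest in the erythroid lists. Both motifs occurred in 6.67% and 8.47%. In the promoters of genes that were low in replicate 3, by the rule given below, GATAA occurred in 21.6%, and in those of genes that were high there in 20.8%. CACCC occurred in 51.0% of the promoters of low genes and in 61.8% of those of high genes. A match is a run of letters and does not show that a factor binds there, and matches of the 2 motifs can share a base.

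Markers of the megakaryocyte were mixed. Of 22 genes 8 were detected and 6 were listed at 0 in all 3 cultures, PF4, PF4V1, SELP, TREML1, MMRN1 and F13A1. GP1BB, a subunit of the von Willebrand factor receptor, had 4492, 5285 and 5024 normalized counts, the highest of the list per length at 92.7 ± 7.76. Its partners did not share that level: GP1BA had 12.8, 0 and 0, and GP9 had 1.82, 0 and 0. ITGA2B, the platelet integrin CD41, had 62.9, 124 and 109 and was lowest in replicate 1.

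Granulocyte and monocyte genes were mostly low, with 11 of 30 detected and 7 listed at 0. CD33, a surface protein of the myeloid lineage, was highest per length at 33.6 ± 4.62, with 1428, 1683 and 1886 normalized counts. LYZ, lysozyme, had 413, 350 and 722, and SPI1, the myeloid factor PU.1, had 312, 278 and 565, both clearly highest in replicate 3. The granule enzymes were at the floor: MPO was listed at 0.908, 0 and 0, and ELANE and CTSG at 0 throughout. The S100A8 gene was also listed at 0 in all cultures.

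Stem and progenitor genes gave 6 detected of 17. GATA2 and PTPRC, the leukocyte antigen CD45, led the list per length at 74.2 ± 14.1 and 42.2 ± 12.2. KIT, the receptor of stem cell factor, had 37.5, 42.5 and 98.2 normalized counts, and CD34 had 85.4, 21.2 and 8.01. KIT was highest and CD34 lowest in replicate 3. FLT3 and HOXA9 were listed at 0 throughout. Of 26 lymphocyte genes 6 were detected and 1 had a mean of at least 100, CD3D, with 111, 141 and 272.

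The list of stromal and epithelial genes was set up as a check for other cell types, and 9 of 24 were detected. Several of its members were abundant. KRT8 had 13507, 13536 and 20293 normalized counts and KRT18, its partner keratin, 10463, 10662 and 13303. KRT19 had 8244, 7923 and 8065, and EPCAM, an epithelial adhesion protein, 3139, 2944 and 3181. VIM, vimentin, the filament of mesenchymal and blood cells, had 18537, 18494 and 35034. KRT19 and EPCAM were even, whereas VIM, KRT8 and KRT18 were highest in replicate 3. KRT5, COL3A1, LUM, CDH5, NEUROD1 and MYOD1 were listed at 0 in all cultures, and CDH1, the main epithelial cadherin, at 7.03, 3.42 and 0.

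The fusion transcript itself was not measured here, and the values are those of its partner genes. BCR had 4433, 4826 and 5266 normalized counts and ABL1 10646, 12004 and 12518. Reads of the fused transcript count towards either gene, so neither value is that of the normal allele alone. Of 24 genes on the path from BCR-ABL1 to STAT5, 23 were detected. Their median coefficient of variation was 6.28%, against 7.45% over all genes with a mean of at least 100, which is not matched for level. Replicate 3 was the highest culture in 18 of these 23, against 4727 of 10446 over all genes, with a median log2 shift of 0.13, and CCND2 was at least 1.5-fold above both other cultures there. PIM1, a survival kinase that STAT5 induces, was highest per length at 387 ± 6.85, followed by the phosphatase PTPN11 at 328 ± 10.1. The STAT5 genes overlapped per length, STAT5A at 252 ± 35.1 and STAT5B at 215 ± 8.95. CRKL, an adaptor that the kinase phosphorylates, had 23462, 23539 and 23881. The SOCS2 and CISH genes, feedback inhibitors and targets of STAT5, had 4857, 4892 and 5417, and 3114, 3210 and 2892. DOK2 was the member that missed the detection rule, at 9.12, 13.1 and 25.7.

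Among 50 oncogenes and leukemia genes 45 were detected. MYC, the transcription factor of cell growth, had 17585, 18109 and 18389 normalized counts and HMGA1, a chromatin protein, 46710, 47940 and 48222. Of the D cyclins CCND3 led per length at 550 ± 5.86, above CCND2 at 94.3 ± 24.8 and CCND1 at 27.1 ± 12.1, which differ from CCND3 by far more than the spread. CCND1 had 443, 337 and 786 and CCND2 1541, 1477 and 2324, both highest in replicate 3. For the survival factors, BCL2L1 had 126 ± 5.36 and MCL1 122 ± 2.63 per length, which overlap, whereas BCL2 had 0.984 ± 0.321. MYCN, FLT3, LMO1 and TLX3 were listed at 0 throughout.

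Of 21 tumor suppressors and cell cycle inhibitors 18 were detected. CDKN1B, the inhibitor p27, had 2126, 2112 and 2045 normalized counts, and RB1 had 1368, 1297 and 1224. CDKN1A, which encodes the inhibitor p21, had 231, 255 and 292. CDKN2A and CDKN2B, the inhibitors of the 9p21 locus, were listed at 0 in every culture.

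Those 2 genes stand in a stretch where most genes were listed at 0. Between MLLT3 and CAAP1 (chr9:20341665-26892804) the annotation places 29 protein-coding genes, and 24 of them (82.8%) were listed at 0 in all 3 cultures, against 18.2% of all protein-coding genes. The 24 include the interferon genes of the cluster, which most cells do not transcribe without infection. Alpha interferons alone are 13 of the 24, so the 82.8% is mostly a count of interferon genes. KLHL9, HACD4 and ELAVL2 were also among the 24. Of the 4 genes detected, MLLT3 and CAAP1 are the ends of the stretch by its definition, FOCAD had 45.2, 16.1 and 28.6, and MTAP, which lies next to CDKN2A, 314, 242 and 322 normalized counts. MTAP thus breaks the run of zeros. Copy number was not measured, and the cause of the zeros was not tested.

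**Figure D3:**
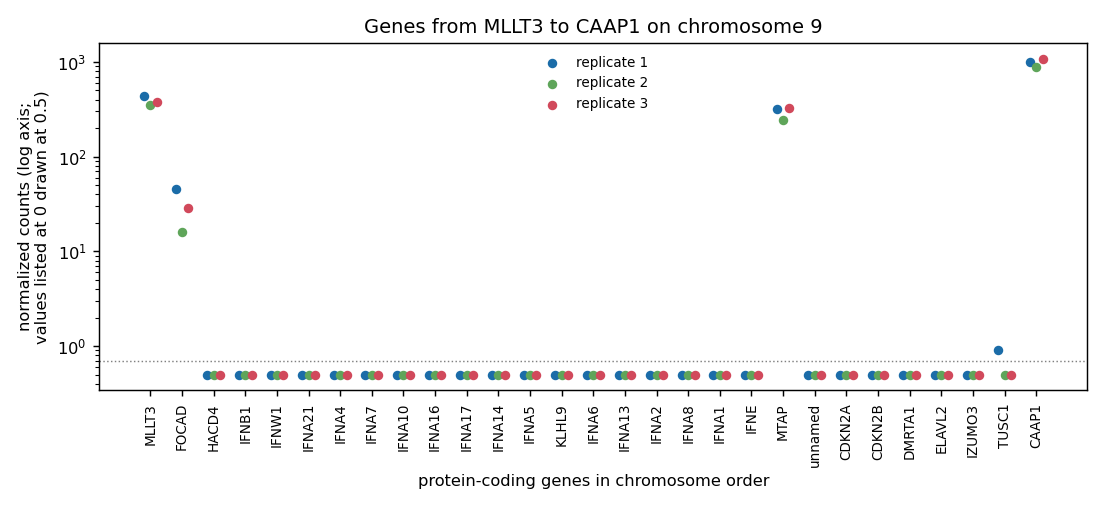
Normalized counts (log axis) of the 29 protein-coding genes from MLLT3 to CAAP1 in chromosome order, with a point per untreated culture and values listed at 0 drawn at 0.5. MLLT3, FOCAD, MTAP and CAAP1 rise above the floor, and 24 genes lie on it in all 3 cultures.

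On chromosome 22 the genes around BCR ranged from very high to listed at 0. PRAME, a tumor antigen, had 41304, 40359 and 41629 normalized counts, and PPM1F, a phosphatase, 11037, 10838 and 11225. The cultures lay close together in both genes. VPREB1 and IGLL5, genes of B cells on the same side of BCR, were listed at 0 throughout. Nearest to BCR on that side, RSPH14 was listed at 0, 0.96 and 0, GNAZ at 0 throughout, and RAB36 between 8.13 and 50.8. Past BCR, MIF, a cytokine, had 5341, 5443 and 7423, and SMARCB1, a chromatin remodeling subunit, 66.0, 127 and 145. Of 26 listed genes of the neighbourhood 16 (61.5%) were detected, against 60.7% of all protein-coding genes. The list was picked by hand and leaves out some protein-coding genes that the annotation places there. Among genes of that stretch, GGTLC2, IGLL1, GSTT2B and DDT were listed at 0 throughout. The 61.5% is therefore a share of the list and not of the region.

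Cancer-testis antigens are normally restricted to germ cells. In K-562 19 of 26 (73.1%) were detected, against 60.7% of all protein-coding genes. Their median coefficient of variation was 4.60%, against 7.45% over all genes with a mean of at least 100, which is not matched for level. PRAME led per length at 1470 ± 19.6. MAGEA3 had 10245, 10093 and 11150 normalized counts and MAGEA6 8262, 8213 and 8954, but 71.6% of the 31-base words of MAGEA3 occur in other genes, so their separate values are uncertain. MAGEA1 had 4100, 4436 and 4239, MAGEB2 4100, 3943 and 4080, and CTCFL, a germ cell relative of CTCF, 3573, 3345 and 3412. GAGE1 had 1356, 1330 and 1277. DDX43 and SYCP1, by contrast, were listed at 0.

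Antigen presentation genes were low. Of 26 genes 8 were detected and 10 were listed at 0 in all cultures, among them HLA-C, HLA-DRA and HLA-DRB1. HLA-B was listed at 16.8, 11.8 and 30.8. HLA-E, a ligand of an inhibitory receptor of natural killer cells, was the highest at 639, 534 and 913. K-562 is a standard target of natural killer cells because it shows little class I HLA. NCR3LG1, the ligand B7-H6 of an activating receptor on those cells, had 1457, 1672 and 1714, and the adhesion ligands PVR and NECTIN2 had 967, 1114 and 1084, and 3498, 3505 and 4009. These values carry a limit. Of the 40 protein-coding genes between HLA-F and TAPBP (chr6:29722775-33314387) with a mean of at least 100, 11 (27.5%) had a highest library at least 2 times the lowest, against 2.34% of all such protein-coding genes. PPP1R10, for example, had 1020, 1243 and 106, and RXRB 268, 333 and 0. The part of this spread in the low HLA values was not tested.

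Genes of dividing cells were all present. Each of the 31 genes of DNA replication and mitosis was detected, with a median coefficient of variation of 3.60%. TOP2A, which untangles DNA, led per length at 844 ± 17.1, and MCM7 and MCM6 of the replicative helicase followed at 619 ± 11.8 and 496 ± 7.04. MKI67, a proliferation marker, had 8948, 10259 and 9293 normalized counts, and the mitotic cyclin CCNB1 10029, 9788 and 10448. RRM2, a subunit of ribonucleotide reductase, had 6157, 5804 and 4286, and MCM4 had 691, 952 and 1235. RRM2 was lowest and MCM4 highest in replicate 3, while the other members named lay close together.

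All 33 reference genes often used for scaling were detected. RPLP0 led per length at 4437 ± 130, and HSP90AB1 had 185848, 182363 and 184311 normalized counts. CHMP2A, with 2262, 2267 and 2250, and PSMB2, with 13532, 13701 and 13565, were among the most even. ACTB, beta actin, with 1341, 1537 and 1233, lay below most of the list at 55.9 ± 6.44 per length. Of its 31-base words 16.0% occur in other genes, and the cause of its level was not tested.

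Of 30 apoptosis regulators 25 were detected. CYCS, cytochrome c, led per length at 829 ± 21.8, and XIAP, a caspase inhibitor, stood at 126 ± 9.91. BAX, a pore-forming killer protein, had 1593, 1584 and 1862 normalized counts and BAK1 916, 933 and 1089. FAS, a death receptor, was listed at 1.07, 0 and 0, whereas the TRAIL receptors TNFRSF10A and TNFRSF10B had 1548, 1645 and 1806, and 881, 907 and 1107. All 20 sirtuins, deacetylases and NAD enzymes with a row here were detected. HDAC2 had 492 ± 14.8 and HDAC1 414 ± 11.6 per length, above HDAC3 at 168 ± 8.91. SIRT1 had 1560, 1696 and 1380 normalized counts, SIRT7 1151, 1103 and 1426, and SIRT4, at 31.1, 27.6 and 42.1, was the lowest sirtuin measured.

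Of 27 early response and stress genes 21 were detected. EGR1 had 2858, 3055 and 2844 normalized counts, JUNB 2850, 3127 and 2586, and FOS 99.4, 95.1 and 85.0. HSPA1A, the inducible heat shock gene, had 153, 144 and 120, while its constitutive relative HSPA8 had 129831, 121651 and 123231. HSPA1A lies in the stretch from HLA-F to TAPBP described above, so its low value carries the same limit. HMOX1 and CA9 were listed at 0. DDIT4, a stress-induced inhibitor of mTORC1, had 2865, 2767 and 1550 and was the most uneven of the members named. Of the 18 members with a mean of at least 100, replicate 3 was the lowest culture in 14 and the highest in 1. Their median log2 shift there was -0.21.

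Among long noncoding RNAs of the nuclear genome GAS5 had 9127, 8927 and 7423 normalized counts. By the median transcript length GAS5, SNHG1 at 329 ± 6.86 and MALAT1 at 296 ± 46.6 were the highest, but the order depends on the length taken. With the longest transcript DANCR, SNHG3 and SNHG6 stood above GAS5, at 538, 454 and 438 against 389, and MALAT1 came to 43.5. MEG3, an imprinted RNA, had 13016, 14481 and 12575 normalized counts. BGLT3, a noncoding RNA of the beta globin cluster, had 327, 371 and 204, lowest in replicate 3 as the gamma genes beside it were. NEAT1 had 4670, 3930 and 2754. PVT1 had 56.4, 60.2 and 50.4.

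Replicate 3 stood apart from the other cultures in the erythroid genes. For every gene with a mean of at least 100, a culture was counted as low or high when it was at least 1.5-fold below or above both others. Replicate 3 was low in 148 genes (1.42%) and high in 162 (1.55%) of 10446. Replicate 1 was low in 94 (0.9%) and high in 53 (0.507%), and replicate 2 was low in 55 (0.527%) and high in 59 (0.565%). Against that background, replicate 3 was low in 6 of 7 globin genes, 4 of 12 heme genes, 7 of 24 membrane genes and 4 of 11 red cell enzymes and late markers, and in none of the 10 iron genes. The median log2 difference of replicate 3 from the mean of replicates 1 and 2 was -0.92 in globin genes, -0.50 in heme genes, -0.37 in membrane genes and -0.46 in the enzymes, against 0.04 over all genes. In the transcription factor list it was -0.04, with 1 low member, SOX6, and 1 high member, RUNX1, of 23. Smaller shifts down were not confined to erythroid lists. The median was -0.21 in early response and stress genes, -0.16 in listed noncoding RNAs and -0.10 in cytosolic ribosomal protein genes. Replicate 3 was the lowest culture in 62 of 79 of these ribosomal protein genes and the highest in 7.

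Globin genes took 1.88%, 1.89% and 0.954% of replicates 1, 2 and 3. The 25 genes with a mean of at least 1000 that were low in replicate 3 included, besides 6 globin genes, RHCE with 1821, 1884 and 715 normalized counts, RHD, which shares 33.2% of the words of RHCE, with 1550, 1433 and 828, HEMGN, an erythroid nuclear protein, with 1605, 1937 and 945, and PKLR, the red cell pyruvate kinase, and BTG2, a brake on cell division. FAXDC2 had 932, 970 and 293. ERFE, which erythroblasts secrete to lower hepcidin, had 150, 147 and 61.5. These genes were named after their values were seen. Replicate 3 lay under both other cultures in each of them, and replicates 1 and 2 differed far less from each other.

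The 22 genes with a mean of at least 1000 that were high in replicate 3 included VIM, PKM, CCND2, CAVIN1 and TMSB10. PKM, the pyruvate kinase of dividing cells, had 15078, 15834 and 25354 normalized counts, and TMSB10, a thymosin that binds actin, 2299, 2073 and 4256. Several leukocyte genes with lower means, likewise named after their values were seen, were also high there: FCGR2A, an antibody receptor, had 251, 343 and 734, CD53 had 258, 297 and 601, and CD52 had 73.9, 77.4 and 231. RUNX1 had 801, 769 and 1369 and AFP, alpha-fetoprotein, 43.7, 70.6 and 240. The granulocyte and monocyte list was shifted by 0.25 and the stem and progenitor list by 0.45, over 8 and 4 members with a mean of at least 100. The summed level of the granulocyte and monocyte list was 4692, 4860 and 5931 normalized counts, and ELANE, CTSG and S100A8 of that list were at 0 in all 3 cultures. In bulk RNA fewer cells of a type and less RNA per cell cannot be told apart, and what set replicate 3 apart was not tested.

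**Figure D4:**
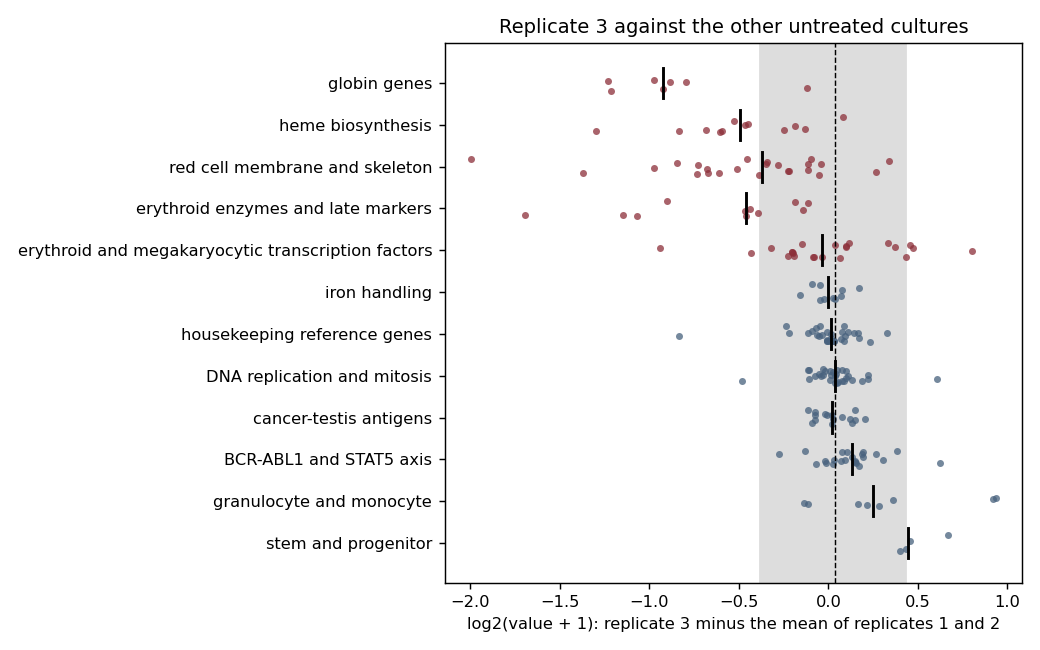
Log2 difference (value + 1) of replicate 3 from the mean of replicates 1 and 2 for genes with a mean of at least 100, by list. Points are genes, black bars list medians, the dashed line the median of all 10446 genes at 0.04, and the grey band their 5th to 95th percentiles, from -0.38 to 0.43. Globin genes center on -0.92, outside the band, and replication genes on 0.04.

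Spread between cultures depended on the level of a gene. The median absolute log2 difference was 0.0977 between replicates 1 and 2, 0.139 between 1 and 3, and 0.133 between 2 and 3, over genes with a mean of at least 100. Genes with means of 10 to 100 had a median coefficient of variation of 30.8%, where counting error alone would give 18.8%. The median was 11.5% for means of 100 to 1000, 5.77% for 1000 to 10000, and 3.81% from 10000 up, where counting error alone would give 0.772%. In the top class 1 of 509 genes had a highest culture at least 2 times its lowest, and that gene was HBZ. In all, 254 of 10446 genes (2.43%) had that 2-fold spread, and 22 of them were among the 388 listed genes with such a mean.

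**Figure D5:**
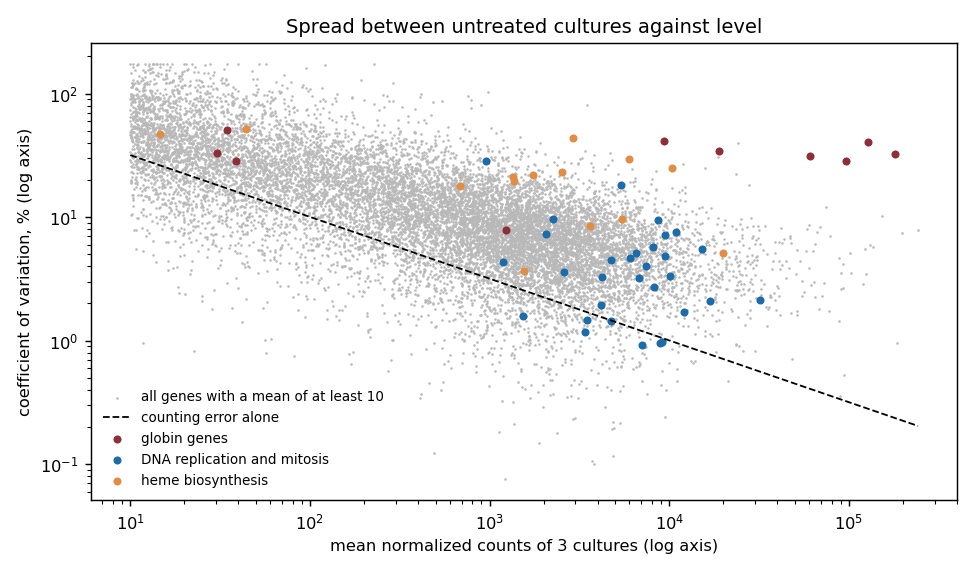
Coefficient of variation between the 3 untreated cultures (percent, log axis) against mean normalized counts (log axis) for genes with a mean of at least 10. Colored points are 3 lists, and the dashed line is counting error from the value of 1 read. Abundant globin genes lie far above the cloud, with HBZ at 40.7%, while most replication genes lie within or under it.

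The 10 most even genes with a mean of at least 1000 had ratios of highest to lowest culture of 1.002 to 1.004. They were ST8SIA6, FAM199X, RPF2, F11R, HMCES, RNF181, ATP5MJ, MYL6B, APH1A and TMED10. RPF2, a factor of ribosome assembly, had 3797, 3793 and 3801 normalized counts. The widest, among genes with a value above 0 in each culture and a mean of at least 100, were LPIN2, SMIM11, RPL36A-HNRNPH2, PPP1R10, RAB12, SAMD8, FAM83H, KCNJ15, CLHC1 and DPY19L1, with LPIN2 at a ratio of 23.0 and values of 328, 170 and 14.2. A further 11 genes with such a mean were listed at 0 in at least 1 culture. INTS3, a subunit of the Integrator complex, had 1057, 0 and 1320, and DCAF11 had 0, 0 and 681. In INTS3 and SMIM11 replicates 1 and 2 were far apart, whereas in DCAF11, PPP1R10 and CLHC1 replicate 3 was the odd one, and such genes count among those low or high in replicate 3. The cause of these jumps was not tested.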

How the data were processed

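RNA of 3 untreated K-562 cultures was read from a table that the authors deposited, which holds a signal per gene and library, namely gene counts normalized with DESeq2. Per the submitters' processing notes, cutadapt, Salmon, DESeq2 and the build GRCh38 were used. Tool versions and the annotation are not given in the sources used here. A total of 9 treated libraries shares that normalization and was otherwise not used. Values were not whole reads, so no count method was run. The depth was estimated from the value of 1 read, taken as the commonest low value of each library. It was 0.908, 1.116 and 0.998 in replicates 1, 2 and 3. Salmon divides reads among similar transcripts, so paralogs can trade reads.

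Symbols came from a gene name table for 50026 identifiers, and lengths, classes and coordinates from GENCODE release 29 for 50292. Genes without a length held 0.150% of the counts. Python 3.11.15 with pandas 2.3.3 and numpy 2.4.6 computed levels, means and SD over 3 cultures, and a pseudocount of 1 preceded log2. The procedure was tested on simulated data. The 26 gene lists, with 618 genes of which 20 are not analysed here, and all members were chosen with earlier results of these data known. In each list the highest members per length and members known for the line were named, and over all genes the 20 highest, the 10 widest and the 10 most even. Some list members are left unnamed and not reported here. Alternatives were other minima, folds, scalings and transcript lengths, and each culture left out.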

Additional observations from a re-analysis of the deposited data

How the results depend on the processing

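The same numbers of detected genes and of genes at 0, within 1.5-fold, came from each alternative tried. Shares changed with the quantity. Of length-scaled levels, globin genes took 2.16%, ribosomal protein genes 10.5%, the mitochondrial genome 3.21% and the top 100 genes 22.7%. The members of the top 100 by counts that lie outside the mitochondrial genome took 17.3% of the counts outside it. The median log2 difference between cultures, 0.123 over the 3 pairs, was 0.164 for means of at least 10, 0.0930 for means of at least 1000, and 0.0980 to 0.139 with each culture left out. The 254 genes with a 2-fold spread became 1002 at 1.5-fold, 42 at 4-fold, 502 with a mean of at least 50, 12 with a mean of at least 1000, and 93 to 162 with a culture left out, 93 of them without replicate 3. Genes low and high in replicate 1 numbered 26 and 14 at 2-fold and 8 and 2 with a mean of at least 1000. For replicate 2 they numbered 17 and 11 at 2-fold and 4 and 1 with that mean, and for replicate 3, 41 and 30 at 2-fold and 25 and 22 with that mean. The rule for a low or high culture was chosen after seeing the data. For the 20 highest genes per length, 63 values under other lengths or fewer cultures moved by less than the spread and 37 by more. Genes with means under 100 are limited by counting error, and lengths by the annotation. No paired analysis was possible because there is 1 group.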

Other observations

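HOX genes were chosen for a look after their values were seen. Of the HOXB cluster 8 of 10 genes (80.0%) were detected and of the HOXC cluster 7 of 9 (77.8%). In HOXA it was 3 of 11 (27.3%) and in HOXD 3 of 9 (33.3%), against 60.7% of all protein-coding genes. HOXB9 had 4697, 4927 and 5288 normalized counts in replicates 1, 2 and 3, HOXB4 1659, 1824 and 2009, and HOXD13 724, 531 and 651. The detected HOXC genes were lower than HOXD13: HOXC12, the highest of them by mean, had 304, 325 and 324.

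Olfactory receptor genes, which belong to the sensory neurons of the nose, gave 7 detected of 285. Of these 7, 4 lie on chromosome 11 (OR51B5, OR51B4, OR51I1 and OR52A1), where the receptor genes flank the beta-like globin cluster. The share of all 285 that lies on chromosome 11 was not counted, so no excess there is inferred. OR51B5 had 2394, 2390 and 1843 normalized counts and OR51B4 266, 266 and 182. The annotated span of HBG2 reaches over OR51B4 and OR51I1 and most of OR51B5, so reads of overlapping transcripts on that strand can be assigned to either, and these values are uncertain. Keratin-associated proteins (78 genes), defensins (28), clustered protocadherins (51) and alpha interferons (13) gave 0 detected genes, whereas 379 of 459 ZNF zinc finger genes were detected.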
